A study of Rattus norvegicus with 32 samples.

Results

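The genes described are 10 autophagy and lysosome genes, namely Ulk1, Becn1, Atg5, Atg7, Map1lc3b, Gabarapl1, Sqstm1, Bnip3, Lamp1 and Tfeb. They were found as every non-control probe whose gene name in either annotation of the scanner output matched, which gave 21 of the 45598 probes on the array, and 10 of the 39629 distinct names (symbols and accessions) they carry. All 10 genes had a probe above the filter on dim probes in both sexes, with 20 of the 21 probes kept in males and 19 in females. The brightest probe on average over the 32 arrays stands for its gene below, and 6 of the genes had a single probe.

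Autophagy is the process by which a cell encloses proteins or organelles in a membrane and delivers them to the lysosome, where acid hydrolases digest them. A kinase complex starts it, a lipid kinase complex marks the membrane, and a conjugation system attaches small ubiquitin-like proteins of the LC3 and GABARAP families to the membrane lipid. Receptors such as p62 then tether cargo to those proteins. In the heart, autophagy supplies amino acids during energy stress and removes damaged mitochondria. Transcript levels do not measure the flow of cargo to the lysosome, and no protein was measured here.

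The samples were left ventricles of young adult Wistar rats, taken 20 h after surgery. Sham rats had surgery without sepsis, CLP rats had cecal ligation and puncture (a surgical model of abdominal sepsis), and CLP plus landiolol rats also received landiolol, a β1-blocker with a brief action, infused from 1 h after CLP. The other rats received saline at the same volume, all rats were given buprenorphine, none received antibiotics, and the hearts had been perfused outside the body before they were frozen. Each sex had 5 sham, 5 CLP and 6 CLP plus landiolol rats, each on an array of its own. Because sham rats received no landiolol, the effect of the drug without sepsis cannot be told apart from its effect in sepsis. The tissue was whole ventricle, so fewer cells of a type and less RNA per cell cannot be told apart.

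Between 34920 and 43155 spots per array were well above background, no spot was saturated, and arrays of one sex correlated at 0.94 to 0.99 in males and 0.93 to 0.99 in females (Pearson, across probes). Every group lay on both slides of its sex, and the sexes lay on different slides, so a difference in level between the sexes cannot be told apart from the slide. The scanner output named another protocol for the arrays of a single female slide than for all other arrays. The position on the slide was not balanced in females. All 5 female sham arrays lay in row 1 of their slides and all 6 female CLP plus landiolol arrays in row 2, with CLP arrays in both. The 8 cardiomyocyte markers were bright on every array, with summed linear intensities of 1547700 to 2001870, and limma called 0 of them in any comparison. Female CLP replicate 4 stood apart in haemoglobin transcripts, with a summed intensity of 112337 beside medians of 2307 to 3675 in the female groups. Without it, female CLP vs sham gave 0.93 for Sqstm1 (adjusted p = 0.00957, limma), 0.76 for Map1lc3b (adjusted p = 0.0208) and 1.19 for Bnip3 (adjusted p = 0.0486).

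Differences are given on the log2 scale of normalised intensity, as the first group minus the second. A call is an adjusted p (Benjamini-Hochberg over all probes tested, limma) under 1% against sham and under 5% for CLP plus landiolol vs CLP. In CLP vs sham, 3 of the 10 genes were called in males and 2 in females, all higher in CLP, where 7.82% of all 25850 probes tested were called in males and 3.64% of 25381 in females. Of the 10 genes, 0 were called by limma in CLP plus landiolol vs CLP, in either sex, against 1.56% of all probes in males and 0.0946% in females. At an unadjusted p under 0.05 there were 3 in males and 2 in females, where 14.8% of all probes passed in males and 9.34% in females, and SAM also called 0. Against sham, 4 of the 10 were called in CLP plus landiolol in each sex, all higher, against 4.15% of probes in males and 5.25% in females. CLP and sham did not overlap for 5 of the 10 genes in males and 2 in females, beside 12.3% and 8.33% of all probes tested. CLP plus landiolol and sham did not overlap for 4 in each sex, beside 7.8% and 9.74%. The median over the 10 genes was 0.18 in males and 0.29 in females in CLP vs sham, beside 0.01 and -0.01 over all probes. In CLP plus landiolol vs sham it was -0.01 in males and 0.22 in females, beside -0.002 and 0.0007 over all probes. In CLP plus landiolol vs CLP it was -0.05 and 0.12, beside -0.01 and 0.03.

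**Figure D1:**
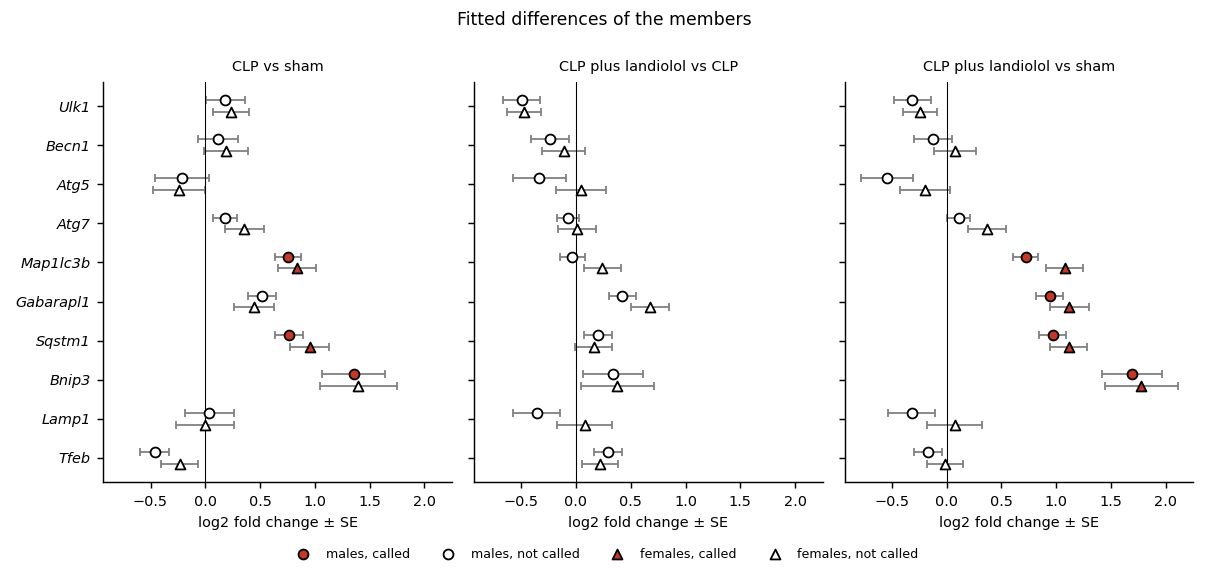
Fitted log2 fold change of the 10 genes (x axis, bars are SE) in each comparison, with males as circles and females as triangles and called genes filled. Map1lc3b, Sqstm1 and Bnip3 lie to the right of 0 in both comparisons with sham, and no symbol is filled in CLP plus landiolol vs CLP.

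RefSeq promoter windows (build GRCr8, 250 bases before to 50 after the annotated start) matched 9 of the 10 genes. The 250 bases before the start are shown for the 4 genes that rose against sham, together with Lamp1, which did not pass the test in any comparison and holds the most matches. Capitals mark CACGTG (the E-box core), its longer form TCACGTGA (the core of the element that Tfeb family factors bind at lysosomal genes) and TGACNNNGC (the core of the antioxidant response element), searched on both strands.
Sqstm1, chr10:35037751-35038000, reverse strand: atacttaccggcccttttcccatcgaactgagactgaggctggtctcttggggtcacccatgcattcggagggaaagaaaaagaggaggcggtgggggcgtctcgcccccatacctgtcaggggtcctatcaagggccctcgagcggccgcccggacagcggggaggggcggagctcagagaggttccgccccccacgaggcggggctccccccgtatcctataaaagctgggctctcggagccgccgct
Map1lc3b, chr19:66574345-66574594, forward strand: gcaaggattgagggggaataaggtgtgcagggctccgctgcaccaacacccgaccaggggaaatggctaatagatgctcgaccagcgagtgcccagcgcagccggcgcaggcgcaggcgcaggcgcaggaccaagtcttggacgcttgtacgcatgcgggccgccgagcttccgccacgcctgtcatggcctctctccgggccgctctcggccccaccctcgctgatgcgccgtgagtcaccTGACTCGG
Gabarapl1, chr4:164666082-164666331, forward strand: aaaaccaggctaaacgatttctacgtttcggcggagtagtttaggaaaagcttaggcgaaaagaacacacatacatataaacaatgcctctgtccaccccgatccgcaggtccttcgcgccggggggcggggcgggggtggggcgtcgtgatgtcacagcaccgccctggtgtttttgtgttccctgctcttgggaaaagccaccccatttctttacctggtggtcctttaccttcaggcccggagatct
Bnip3, chr1:203154963-203155212, reverse strand: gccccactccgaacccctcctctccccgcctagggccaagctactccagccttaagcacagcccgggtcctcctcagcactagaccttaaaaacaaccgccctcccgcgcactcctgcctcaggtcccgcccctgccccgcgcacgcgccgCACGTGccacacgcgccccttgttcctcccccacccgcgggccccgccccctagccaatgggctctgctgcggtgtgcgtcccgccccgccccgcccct
Lamp1, chr16:83075064-83075313, reverse strand: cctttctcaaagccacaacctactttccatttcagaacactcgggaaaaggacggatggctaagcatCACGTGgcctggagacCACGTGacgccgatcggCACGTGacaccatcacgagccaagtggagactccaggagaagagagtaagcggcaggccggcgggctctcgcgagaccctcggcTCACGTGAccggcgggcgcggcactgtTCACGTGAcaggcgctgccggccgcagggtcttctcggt
Over the whole windows of 300 bases, CACGTG was present in 3 of the 9 genes (Atg5, Bnip3 and Lamp1) and in 6.42% of all 33469 promoters of the table. TCACGTGA was present in 1 of the 9 (Lamp1) and in 0.777% of promoters. ACGTG (the core of the hypoxia response element, which also lies inside CACGTG) was present in 4 of the 9, Gabarapl1 being the gene added to the previous 3, and in 19.3% of promoters. TGACNNNGC was present in 1 (Map1lc3b, ending on the first transcribed base) and in 12.1% of promoters. GTAAACA, one spelling of the forkhead motif, was present in 0 of the 9 and in 3.78% of promoters. Other spellings of that motif were not searched. Lamp1 held CACGTG at 5 places, from base -183 to base -33 counted from the start, and Bnip3 at 1 place, from -99 to -94. The windows of Sqstm1 and of Gabarapl1 held no CACGTG. A match describes letters only, and no binding was measured.

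Sqstm1 encodes p62, a receptor that binds ubiquitinated cargo and LC3 and is itself degraded with the cargo. Its probe lies at chr10:35751303-35751362 on the reverse strand (build rn4, as the array's annotation gives it). In males the sham levels were 13.87, 14.22, 14.02, 13.92 and 14.03, the CLP levels were 14.76, 14.52, 14.93, 14.96 and 14.73, and the CLP plus landiolol levels ran from 14.55 to 15.18 with a median of 15.03. Every septic male lay above every sham male. The difference was 0.76 (SE 0.13, adjusted p = 0.00104, limma), or 1.70-fold, in CLP vs sham, and 0.97 (SE 0.13, adjusted p = 0.000206) in CLP plus landiolol vs sham.

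In females the Sqstm1 levels in sham were 13.64, 14.72, 13.99, 14.00 and 14.36, those in CLP were 14.99, 15.33, 15.04, 15.21 and 14.92, and those in CLP plus landiolol ran from 14.92 to 15.39 with a median of 15.35. Every septic female lay above every sham female, although the female sham rats were spread more widely (SD 0.41) than the male ones (SD 0.13). Sqstm1 rose by 0.95 (SE 0.18, adjusted p = 0.00326, limma) in CLP vs sham and by 1.12 (SE 0.17, adjusted p = 0.000622) in CLP plus landiolol vs sham. The CLP vs sham call was kept in 25 of 27 alternative settings and was lost with the row on the slide as a term (0.98, adjusted p = 0.0165) and with only the groups compared. Within the female slides the CLP vs sham difference was 1.27 on the slide with a protocol of its own and 0.62 on the other. Within the male slides it was 0.69 and 0.85. With landiolol against CLP, Sqstm1 differed by 0.20 (SE 0.13) in males and 0.16 (SE 0.17) in females, and neither passed the test.

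Sqstm1 had 2 further probes nearer the start of the gene. Both were higher in CLP than in sham in both sexes, by 0.57 and 0.91 in males and by 0.78 and 1.04 in females, and of these only A_64_P149735 was called, in females (adjusted p = 0.00735, limma). With landiolol against CLP both went the other way from the leading probe, by -0.20 and -0.18 in males and by -0.09 and -0.07 in females, without passing the test.

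Map1lc3b encodes LC3B, which is attached to the growing autophagosome membrane and is the usual marker of that structure. Its leading probe lies at chr19:51854804-51854863 on the forward strand (rn4). In males the sham levels were 14.67, 14.87, 14.86, 14.83 and 14.81, the CLP levels were 15.39, 15.49, 15.80, 15.74 and 15.42, and the CLP plus landiolol levels ran from 15.25 to 15.80 with a median of 15.50. The male sham rats were the tightest group of this gene (SD 0.08), and no septic rat reached down to them. Map1lc3b rose by 0.76 (SE 0.12, adjusted p = 0.000617, limma) in CLP vs sham and by 0.72 (SE 0.12, adjusted p = 0.00102) in CLP plus landiolol vs sham.

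In females Map1lc3b stood at 14.93, 15.03, 14.38, 14.83 and 14.61 in sham, at 15.26, 15.47, 15.72, 15.93 and 15.61 in CLP, and between 15.39 and 16.26 in CLP plus landiolol, with a median of 15.82. The lowest CLP female was above the highest sham female. The rise was 0.84 (SE 0.18, adjusted p = 0.00722, limma) in CLP vs sham and 1.08 (SE 0.17, adjusted p = 0.000774) in CLP plus landiolol vs sham. The female CLP vs sham call was a narrow one: it was kept in 11 of 27 alternative settings, with adjusted p up to 0.0555, and in all 27 the value stayed between 0.72 and 0.92. Landiolol against CLP gave -0.03 (SE 0.12) in males and 0.24 (SE 0.17) in females.

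Map1lc3b had 6 probes, and all 6 were higher in CLP than in sham in both sexes, by 0.50 to 0.88 in males and by 0.53 to 1.02 in females. The leading probe and A_44_P1152843 overlap on the genome, so they are not separate evidence, and both were called against sham throughout. Of the other 4, A_44_P1137208 was called in 1 comparison, CLP plus landiolol vs sham in females (0.92, adjusted p = 0.00627, limma). The probes A_44_P1370656 and A_44_P430939, whose 60 bases are spread over a longer stretch of rn4, had SE of 0.34 to 0.43.

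**Figure D2:**
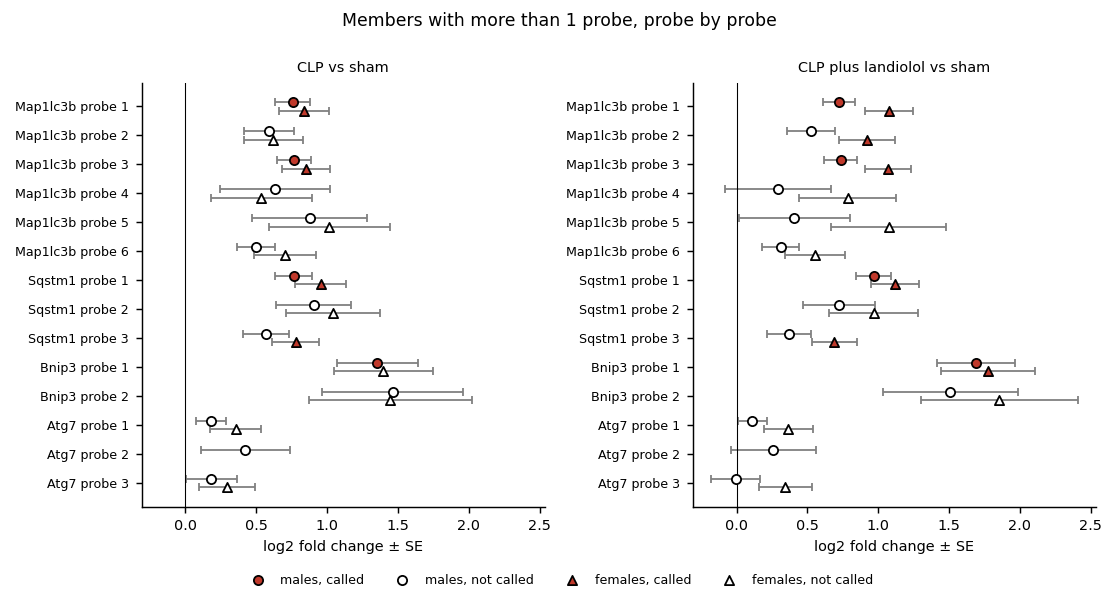
Log2 fold change with SE of every probe kept for the genes with more than 1 probe, in CLP vs sham (left) and CLP plus landiolol vs sham (right), with males as circles, females as triangles and called probes filled. Probe 1 is the leading probe of each gene. The probes of Map1lc3b, Sqstm1 and Bnip3 all lie to the right of 0, and those of Atg7 run from -0.01 to 0.42.

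Gabarapl1 belongs to the GABARAP branch of the same ubiquitin-like family and acts later in autophagosome formation and closure. Its only probe, printed at 10 spots on each array, lies at chr4:166811168-166811227 on the forward strand (rn4). Male levels were 14.51, 14.51, 14.38, 14.43 and 14.76 in sham, 15.26, 14.94, 15.10, 15.01 and 14.88 in CLP, and 15.17 to 15.80 with a median of 15.44 in CLP plus landiolol. The 3 male groups stood in that order, with sham below both others and some overlap between CLP and CLP plus landiolol.

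Female Gabarapl1 levels were 15.13, 15.01, 14.45, 14.27 and 14.81 in sham, 15.30, 14.83, 15.10, 15.16 and 15.49 in CLP, and 15.53 to 16.20 with a median of 15.86 in CLP plus landiolol. Here sham and CLP overlapped, and every CLP plus landiolol female lay above every other female. In CLP vs sham the difference did not pass the test, at 0.52 (SE 0.13, adjusted p = 0.0125, limma) in males and 0.44 (SE 0.18, adjusted p = 0.155) in females. The male difference lay near the threshold and was called in 6 of the alternative settings, SAM among them, with values of 0.52 to 0.53. In CLP plus landiolol vs sham Gabarapl1 rose by 0.94 (SE 0.12, adjusted p = 0.000234) in males and by 1.12 (SE 0.18, adjusted p = 0.000791) in females.

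Gabarapl1 was the member with the smallest p in CLP plus landiolol vs CLP in both sexes. It was 0.42 higher with landiolol in males (SE 0.12, adjusted p = 0.113, limma) and 0.68 higher in females (SE 0.18, adjusted p = 0.173), so neither passed the correction over all probes. The difference had the same sign on each slide, with 0.33 and 0.54 on the male slides and 0.86 and 0.55 on the female slides. It was also the only member whose groups did not overlap in this comparison, in females, where 1.15% of all probes did not overlap. In females the landiolol arrays were all in row 2, and with the row as a term the value was 0.52 (adjusted p = 0.842).

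Bnip3 is a receptor on the outer mitochondrial membrane that binds LC3 family proteins during mitophagy and is a known target of the hypoxia response. Its leading probe lies at chr1:198683030-198683089 on the reverse strand (rn4). Male levels were 12.68, 13.75, 13.77, 14.11 and 13.46 in sham and 14.59, 14.69, 15.51, 14.77 and 14.99 in CLP, and in CLP plus landiolol they ran from 14.30 to 15.76 with a median of 15.31. Bnip3 had the largest differences from sham of the 10 genes, with an SD of 0.37 to 0.75 within groups. In males it rose by 1.35 (SE 0.29, adjusted p = 0.0044, limma), or 2.56-fold, in CLP vs sham, and by 1.69 (SE 0.27, adjusted p = 0.00112), or 3.22-fold, in CLP plus landiolol vs sham. The first of these calls was lost without male sham replicate 5, male CLP replicate 3 or male CLP replicate 5, where the adjusted p reached 0.0141.

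Female Bnip3 levels were 14.46, 15.12, 13.07, 14.14 and 14.00 in sham and 14.98, 15.40, 15.73, 16.43 and 15.24 in CLP, and in CLP plus landiolol they ran from 15.25 to 16.40 with a median of 16.10. One sham female, at 15.12, lay above the lowest CLP female. The difference of 1.40 in CLP vs sham (SE 0.35, adjusted p = 0.0188, limma) missed the threshold, beside 1.35 in males. It was called by SAM at the same value and without female sham replicate 2, at 1.64 (adjusted p = 0.00722, limma). It was 2.07 within the female slide with a protocol of its own and 0.68 within the other. In CLP plus landiolol vs sham Bnip3 rose by 1.78 (SE 0.33, adjusted p = 0.00255), with no overlap. A second probe of Bnip3 gave 1.46 in males and 1.45 in females in CLP vs sham, with SE of 0.50 and 0.58, and was not called in any comparison.

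**Figure D3:**
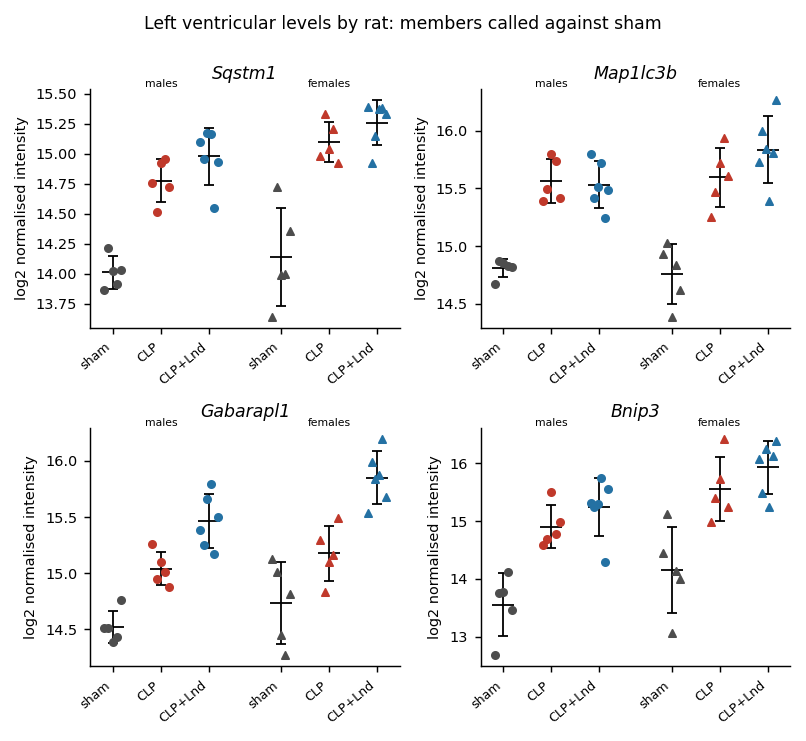
Log2 normalised intensity of Sqstm1, Map1lc3b, Gabarapl1 and Bnip3 in each rat (circles males, triangles females), with the group mean and SD as bars. Sham has the lowest mean of each sex in each panel, with some overlap of sham and CLP females for Gabarapl1 and Bnip3, and the CLP plus landiolol females stand above all other females in the panel of Gabarapl1.

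In the female CLP plus landiolol vs sham comparison, the 4 calls of Sqstm1, Map1lc3b, Gabarapl1 and Bnip3 rest on arrays whose row on the slide goes with the group. With the row as a term, estimated from the CLP arrays alone, the values were 1.17, 0.79, 0.86 and 1.31 and the adjusted p were 0.165, 0.381, 0.356 and 0.511. In males the rows were mixed in every group, and the same 4 calls were kept in all 27 alternative settings. The sex difference was tested directly, and 0 of the 10 genes differed between the sexes in any of the 3 comparisons by limma, where 0 of 26478 probes (0%) were called. The smallest interaction p was 0.0789, for Map1lc3b in CLP plus landiolol vs sham (adjusted p = 0.833), where the differences were 0.72 in males and 1.08 in females.

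Ulk1, the kinase that starts autophagy and is held back by mTORC1, did not pass the test in any comparison. Its probe lies at chr12:46022440-46022499 on the forward strand (rn4). Male levels were 13.40, 13.64, 13.68, 14.00 and 13.55 in sham, 14.14, 13.71, 13.84, 14.18 and 13.30 in CLP, and 13.08 to 13.70 with a median of 13.31 in CLP plus landiolol. Female levels were 13.45, 13.64, 13.08, 13.83 and 13.45 in sham, 13.72, 13.83, 13.95, 13.71 and 13.39 in CLP, and 13.02 to 13.58 with a median of 13.17 in CLP plus landiolol. The landiolol rats had the lowest mean in both sexes, but the groups overlapped.

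With landiolol against CLP the Ulk1 difference was -0.50 (SE 0.17, adjusted p = 0.18, limma) in males and -0.47 (SE 0.16, adjusted p = 0.308) in females. It was below 0 on each of the 4 slides, from -0.66 to -0.30. In females the landiolol arrays were all in row 2 on both slides, so the slides do not separate drug from row. With the row as a term the female value was -0.30 (adjusted p = 0.996, limma). In CLP vs sham Ulk1 stood at 0.18 (SE 0.18) in males and 0.23 (SE 0.16) in females.

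Becn1, the Beclin 1 subunit of the lipid kinase complex, ranged from 9.96 to 10.66 in male sham, 10.07 to 10.78 in male CLP and 9.94 to 10.63 in male CLP plus landiolol. In females the ranges were 9.98 to 10.55, 9.93 to 11.02 and 10.14 to 10.74. The groups lay over each other throughout, with differences from -0.24 to 0.19 and SE of 0.17 to 0.20.

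Atg5 and Atg7 belong to the conjugation system, Atg7 as its activating enzyme and Atg5 as part of the complex that directs LC3 to the membrane. Atg5 was a dim probe, with group means between 6.22 and 7.12. Its largest difference was -0.55 (SE 0.24, adjusted p = 0.172, limma), in male CLP plus landiolol vs sham, and male sham replicate 1, at 5.91, lay below the other 4 sham males at 6.76 to 7.14. Atg7 stood at 7.34 to 7.46 in male sham and at 7.47 to 7.71 in male CLP. These did not overlap, as was so for 12.3% of all probes tested. The difference of 0.18 (SE 0.11, adjusted p = 0.293, limma) did not pass the test. Of the 4 Atg7 probes, 1 was below the filter in both sexes and 1 in females only.

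Lamp1, a major glycoprotein of the lysosomal membrane, gave 0.04 (SE 0.22) in males and -0.00 (SE 0.26) in females in CLP vs sham. With landiolol it was at -0.36 (SE 0.21) against CLP in males and at 0.08 (SE 0.25) in females, neither passing the test. Within groups it varied by an SD of 0.22 to 0.51, beside 0.08 to 0.29 for Map1lc3b. Male sham replicate 1, CLP replicate 1 and CLP plus landiolol replicates 1, 3 and 5 had a median processed signal up to 81.6. Their Lamp1 levels were 11.66 to 11.91, and all other male arrays lay at 12.32 to 12.73. Of these, sham replicate 5 had a signal of 74.8 and lay at 12.37. Landiolol males 1, 3 and 5 were also the lowest of their group for Atg5. In each female group the array with the lowest signal had the lowest Lamp1. The part of signal in these differences was not tested.

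Tfeb encodes the transcription factor that drives lysosomal and autophagy genes when mTORC1 is inactive. Male levels were 8.97, 8.78, 8.87, 8.95 and 9.28 in sham, 8.92, 8.39, 8.45, 8.55 and 8.22 in CLP, and 8.68 to 9.01 with a median of 8.77 in CLP plus landiolol. The CLP males lay below the others apart from 1 rat at 8.92. The CLP vs sham difference was -0.46 (SE 0.13, adjusted p = 0.0256, limma), which did not pass the 1% threshold, and without that rat it was -0.57 and was called. With landiolol against CLP Tfeb was at 0.29 in males (adjusted p = 0.295, limma) and at 0.22 in females. In females CLP vs sham was at -0.23 (SE 0.17, adjusted p = 0.457).

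**Figure D4:**
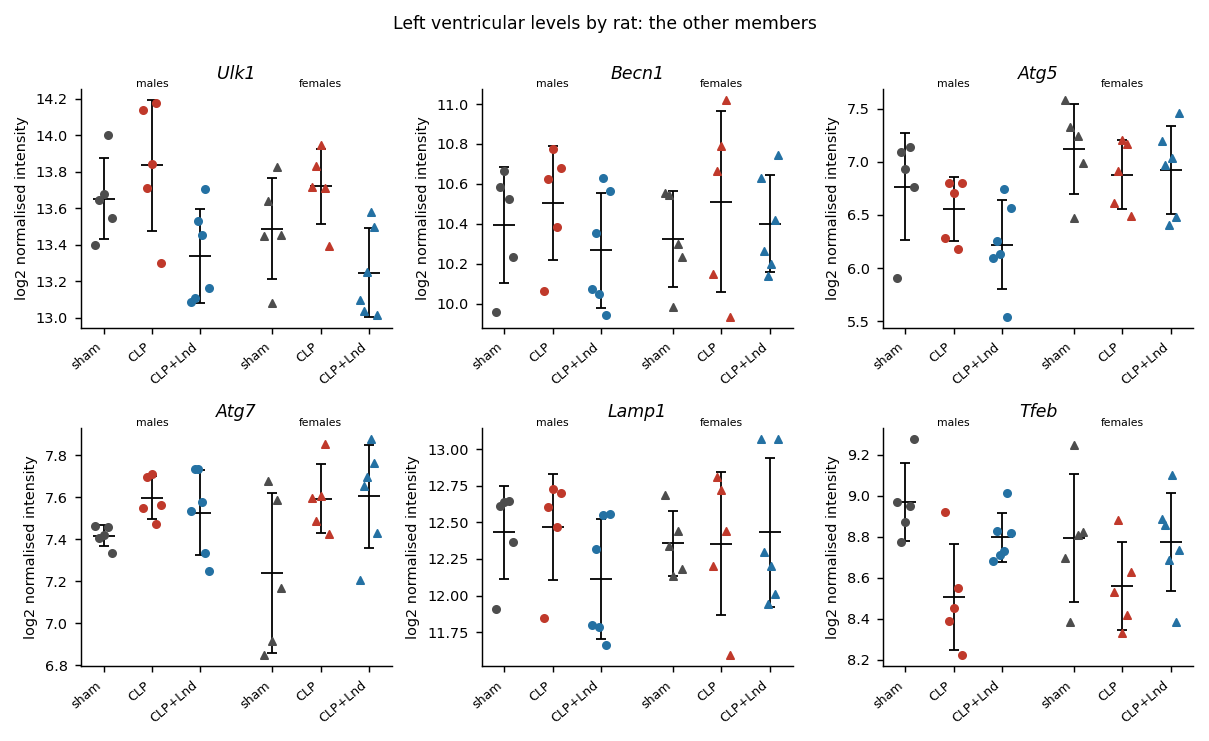
Log2 normalised intensity of Ulk1, Becn1, Atg5, Atg7, Lamp1 and Tfeb in each rat (circles males, triangles females), with the group mean and SD as bars. The groups overlap in most panels, with male Tfeb lowest in CLP apart from 1 rat and Ulk1 lowest on average in CLP plus landiolol.

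The other genes of the pathway were taken from 10 lists by role, 128 genes in all, of which 126 were measured. In CLP vs sham 7 were called in males, 4 higher and 3 lower, and 3 in females, 1 higher and 2 lower. The median over the 126 genes was 0.07 in both sexes, beside 0.01 and -0.01 over all probes. In CLP plus landiolol vs CLP 2 were called in males, both higher, and 0 in females by limma. In CLP plus landiolol vs sham 8 were called in males, 5 higher and 3 lower, and 6 in females, 5 higher and 1 lower. The shares were 5.56% in males and 2.38% in females in CLP vs sham, 1.59% in males in CLP plus landiolol vs CLP, and 6.35% and 4.76% in CLP plus landiolol vs sham, all near those of all probes. With the row on the slide as a term, 0 of the pathway genes were called in females in either comparison with sham, so each female call among the genes named below was lost there.

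Among the genes of initiation, Atg13, the partner of Ulk1, rose by 0.82 in male CLP vs sham (SE 0.18, adjusted p = 0.00648, limma) and by 1.21 in female CLP plus landiolol vs sham (SE 0.23, adjusted p = 0.00269). The male call was kept in 15 of 27 alternative settings. Ulk2, Rb1cc1 and Atg101 were not called. Of the class III PI3 kinase complex, 0 of 7 genes were called in any comparison, and of membrane supply and phosphoinositide binding 1 of 9, Zfyve1, in female CLP plus landiolol vs sham (0.62, adjusted p = 0.00203). Of the remaining LC3 family and conjugation genes, 0 of 11 were called by limma in any comparison, and their medians in CLP vs sham were -0.08 in males and -0.04 in females. Map1lc3a, Gabarap, Gabarapl2 and the Atg4 proteases were among these 11. Over all probes 3.64% to 7.82% were called in the comparisons with sham, so 0 of 7 and 0 of 11 genes are near that share. These counts therefore show nothing particular to the genes of these lists.

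Among the cargo receptors, Optn was called in male CLP plus landiolol vs sham (0.73, adjusted p = 0.00411, limma), 1 of 11 genes. Among the fusion genes, Plekhm1, an adaptor between Rab7 and the fusion machinery, rose by 0.54 in male CLP vs sham and by 0.61 in female CLP plus landiolol vs sham. Vamp8, a SNARE protein of autophagosome fusion, rose in CLP plus landiolol vs sham by 0.43 in males and 0.69 in females. The male call of Vamp8 was kept in 12 of 27 alternative settings, and the female call of Plekhm1 in 15. Of 11 lysosomal membrane proteins measured 1 was called, Lamp2, a glycoprotein needed for autophagosome fusion. It rose by 0.58 in male CLP plus landiolol vs sham (SE 0.12, adjusted p = 0.00501, limma). Of 15 proton pump subunits 1 was called, Atp6v1h, in males with landiolol, by 0.37 against CLP and by 0.42 against sham. The first of these was kept in 7 of 27 alternative settings and the second in 17. The call of Lamp2 was kept in 19 and that of Optn in 20. Over all probes 4.15% were called in male CLP plus landiolol vs sham, so these counts show nothing particular to the genes of these lists.

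The lysosomal hydrolases went both ways. Ctsl1, the gene of cathepsin L, rose in males by 1.30 in CLP vs sham (SE 0.18, adjusted p = 0.00021, limma) and by 1.28 in CLP plus landiolol vs sham, and in females by 0.94 and 1.37. Ppt1 fell by 0.50 in male CLP vs sham, Lipa, the lysosomal acid lipase, fell by 0.54 in male CLP plus landiolol vs sham, and Galc was higher by 0.44 in male CLP plus landiolol vs CLP (adjusted p = 0.0468, limma). The Ppt1 call was kept in 16 of 27 alternative settings. The Galc call was kept in 7 of 27 alternative settings, with values of 0.33 to 0.47 and adjusted p up to 0.133. Both male calls of Ctsl1 were kept in all 27, and the female calls in 18 (CLP vs sham) and 26 (CLP plus landiolol vs sham). With the row as a term the female values were 0.90 (adjusted p = 0.029, limma) and 1.27 (adjusted p = 0.149).

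Of the 19 transcription factors and regulators of mTORC1, Rragd and Ddit4 were called. Rragd, a Rag GTPase that recruits mTORC1 to the lysosome and is itself a target of Tfeb family factors, fell in both sexes and in both septic groups against sham, by 0.93 in males and 0.94 in females in CLP vs sham and by 0.88 and 0.85 in CLP plus landiolol vs sham. With the row as a term Rragd was at -0.78 (adjusted p = 0.0206, limma) and -0.43 (adjusted p = 0.658) in females, neither called. Ddit4, the stress-induced mTORC1 inhibitor REDD1, rose by 1.65 in male CLP vs sham (SE 0.29, adjusted p = 0.00139, limma). Tfe3, Mitf, Foxo1, Foxo3 and Mtor were not called in any comparison.

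**Figure D5:**
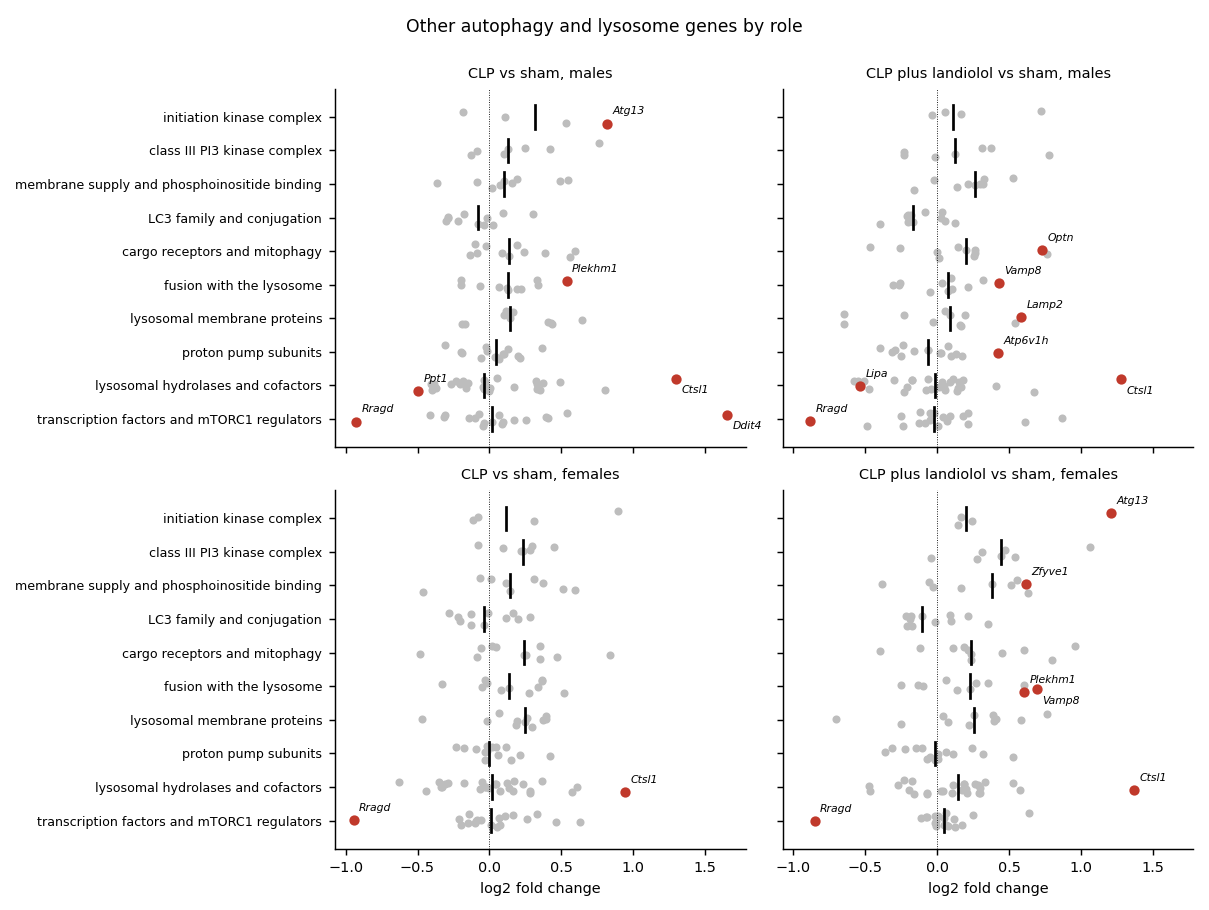
Log2 fold change of the other autophagy and lysosome genes by role (grey points not called, red points called and named, black ticks the medians over all measured genes of a list) in CLP vs sham and CLP plus landiolol vs sham, males above and females below. Ctsl1 lies far right and Rragd far left in all 4 panels, and the medians lie between -0.17 and 0.44.

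Some markers of macrophages, monocytes and neutrophils were higher in the septic groups, and no lymphocyte marker was called higher. Of 4 lymphocyte markers measured in males 1 was called in CLP vs sham, Ptprcap, at -0.86 (adjusted p = 0.00563, limma). Of 3 measured in females 0 were called. Of 12 macrophage and monocyte markers measured, 4 rose in male and 3 in female CLP vs sham, and their summed level (linear scale) ran from 33821 to 47987 in male sham, 59954 to 82461 in male CLP and 50290 to 82209 in male CLP plus landiolol. In females it ran from 40369 to 45449 in 4 of the 5 sham arrays, 55384 to 82428 in CLP and 62197 to 82776 in CLP plus landiolol. Of 8 neutrophil markers 2 were measured in males and both rose (S100a8 and S100a9). Of 3 measured in females S100a8 alone was called, and Fpr1 was at -1.24 (adjusted p = 0.0554, limma). S100a8 was well above background on 0 male and 1 female sham arrays, and S100a9 on 3 and 2. Both thus passed the filter on dim probes only through the septic groups, and Fpr1 only through sham. The directions of these 3 were therefore largely set by the filter. The neutrophil granule genes Mpo, Elane and Mmp8 were well above background on 1 male array at most and on 0 female arrays. Of 6 fibroblast markers, 4 fell in male CLP vs sham and 0 were called in females, with medians of -1.61 in males and -1.07 in females. Dcn, on the same list, went the other way without a call, at 0.87 in males and 0.77 in females. The summed level of the 8 cardiomyocyte markers ran from 1547700 to 1740480 in male sham and from 1616590 to 1738770 in male CLP. The part of these cells in the changes of the autophagy and lysosome genes was not tested.

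Genes whose pattern was closest to that of a member were found by the root mean square difference on the log2 scale over the 32 arrays, after the mean of each sex was subtracted, so they share the libraries and the contrast of sham with septic rats. For Sqstm1, whose SD over the arrays was 0.51, they were Ypel3 (0.24), Pir (0.24) and Gstt2 (0.25). For Map1lc3b, with an SD of 0.46, they were Tmtc1 (0.18), Nudt21 (0.19) and Hmgn2 (0.21). For Gabarapl1, with an SD of 0.49, they included Otud7b (0.22) and Ahnak (0.25).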

How the data were processed

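RNA from the left ventricles of 32 rats was hybridised to 1-colour Agilent rat arrays of 60-base probes, and the labels gave the groups. For each array the authors deposited what the scanner software (Agilent Feature Extraction 10.5) wrote: a processed intensity per spot, already corrected for background, with other columns of names and marks. A table of normalised log2 values, also deposited by the authors, has an unknown offset and served as an alternative. Coordinates are those of the array's annotation (build rn4).

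Spots of controls and spots marked as outliers were dropped, log2 of the processed intensity was averaged over the spots of each probe, and quantile normalisation was applied to the 16 arrays of each sex. A probe entered the tests if most of its spots were well above background in 80% or more of the arrays of any group. The 3 groups of a sex were fitted with limma 3.58.1 in R 4.3.3 (lmFit and eBayes), at a Benjamini-Hochberg FDR of 1% in comparisons with sham and 5% between the septic groups. Sex differences were tested as an interaction on all 32 arrays at 5%. Replicate numbers follow the order of deposit and pair nothing. The number of arrays limits the precision. The tests were checked on simulated data.

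The 10 genes and the gene lists were chosen with earlier results of these data known. Named were all 10 members, in each list up to 4 called genes with the largest change per comparison, the 3 genes most like Sqstm1, Map1lc3b and Gabarapl1, and genes named as not called, chosen after their values were seen. The results of 2 genes that the rule names are not reported here. The alternatives tried were 75th percentile scaling, normexp with an offset of 50, other filters, only the groups compared, a trended prior, slide or row as a term, normalisation of the sexes together, the table of the authors, SAM with 100 permutations, other FDR levels, and leaving out each array.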

Additional observations from a re-analysis of the deposited data

Results flagged for a closer look

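Of the 60 groups of 5 or 6 arrays formed by the 10 genes, 3 treatments and both sexes, 1 held an array that stood far from its group, where chance alone gives about 1 in 20. Male CLP plus landiolol replicate 5 had a Bnip3 level of 14.30, while the nearest of the other 5 was at 15.25 and the highest at 15.76, a gap of 0.651 of the range of the group (critical value 0.625). This array had the fewest spots well above background (34920) and the lowest median processed signal (49.2) of all arrays. It was also the lowest of its group for Sqstm1, Map1lc3b, Gabarapl1, Becn1, Atg5 and Lamp1, and the highest for Ulk1 and Tfeb. Without that array Bnip3 remained called in male CLP plus landiolol vs sham.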

How the results depend on the processing

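Of the 27 alternatives of each comparison, Sqstm1 and Map1lc3b in male CLP vs sham and the 4 calls in male CLP plus landiolol vs sham were kept in all 27. The cause of the changes below was not tested, except that a stricter or looser FDR calls fewer or more by construction.

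Exchanging the FDR levels gave 5 members and 17 pathway genes in male CLP vs sham, 6 pathway genes in female CLP vs sham, 0 in male CLP plus landiolol vs CLP, and 13 in males and 19 in females in CLP plus landiolol vs sham. The 2 pathway calls in male CLP plus landiolol vs CLP became 0 with 75th percentile scaling, no filter, only the groups compared, the slide or the row, and 1 with a trended prior. With only the groups compared, pathway calls were 4 in male CLP plus landiolol vs sham and 1 in female CLP vs sham, and female CLP vs sham had 0 members. Female CLP vs sham had 1 member with no filter or with the slide as a term. With the row as a term females had 0 members and 0 pathway genes in both comparisons with sham. In female CLP plus landiolol vs sham, normexp gave 10 pathway genes and SAM 18.

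Values that were not called changed sign. Lamp1 in CLP vs sham was at -0.055 in males in the table of the authors, and in females at 0.017 with normexp, 0.0077 with the slide and 0.22 with the row. Atg7 in female CLP plus landiolol vs CLP was at -0.024 with 75th percentile scaling, -0.021 with normexp, -0.033 with the row and -0.0077 in the table of the authors. In female CLP plus landiolol vs sham, Tfeb was at 0.0050 with normexp and 0.042 with the row, and Ulk1, at -0.24 without that term, at 0.039 with the row.

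Leaving out each array in turn gave 2 to 4 members in male and 1 to 3 in female CLP vs sham, 4 to 4 in CLP plus landiolol vs sham and 0 to 0 in CLP plus landiolol vs CLP. Pathway calls ran from 4 to 11 in males and 1 to 3 in females in CLP vs sham, from 0 to 4 and 0 to 0 in CLP plus landiolol vs CLP, and from 2 to 9 and 5 to 7 in CLP plus landiolol vs sham. The lowest counts were those without male sham replicate 5 or male CLP replicate 4 and without male CLP plus landiolol replicate 1, and the highest in male CLP vs sham was without male CLP replicate 1. Map1lc3b in female CLP vs sham lost its call without any 1 of 12 arrays, namely sham replicates 1, 3, 4 and 5, CLP replicates 2, 3, 4 and 5, and CLP plus landiolol replicates 1, 2, 3 and 5. Male values that changed sign ran from -0.10 to 0.19 for Lamp1 in CLP vs sham and from -0.088 to 0.024 for Map1lc3b in CLP plus landiolol vs CLP. Female ones ran from -0.12 to 0.19 for Lamp1 in CLP vs sham. In female CLP plus landiolol vs CLP they ran from -0.061 to 0.15 for Atg5, -0.043 to 0.091 for Atg7, -0.26 to 0.015 for Becn1 and -0.11 to 0.19 for Lamp1. In female CLP plus landiolol vs sham they ran from -0.0095 to 0.13 for Becn1, -0.12 to 0.10 for Tfeb and -0.051 to 0.17 for Lamp1. No paired analysis was made, because each rat belonged to a single group. Atg5 and Atg7 had the dimmest probes, while the largest SE among the leading probes were those of Bnip3, a bright one (0.27 to 0.35).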
